A study of Mus musculus with 13 samples.

Results

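Round spermatids of mice labelled as knockout for Wfdc15a (KO) were compared with those labelled wild type (WT) across all genes of the deposited table. The comparison takes in 5 of the series' 13 libraries, 3 KO and 2 WT, chosen by their labelled genotype and cell type. All mice were at postnatal day 25. Another 2 round spermatid libraries are labelled heterozygous (Het); they entered the fit to share its estimate of the spread and are given beside the KO values. Differences of KO and of Het from WT share the same WT libraries, so they are set side by side and not compared as independent results. The remaining 6 libraries are of whole testis. Each round spermatid library was made by Smart-seq2 from a pool of 100-200 cells sorted on a DNA dye, so no cell was sequenced singly. The labels describe neither the allele and the strain nor whether each library stands for its own animal. Every p-value is therefore a measure of the spread among these samples alone, and that spread may be technical. The totals to which the libraries were scaled were 17120321 and 20389217 reads in WT, 15014900 and 10825690 in Het, and 20927428, 17069475 and 14088567 in KO replicates 1 to 3.

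Wfdc15a encodes a WAP four-disulfide core protein; several of these small cysteine-rich proteins are secreted inhibitors of proteases. Round spermatids are the haploid germ cells that leave meiosis. They transcribe the genes of the acrosome, the flagellum and the sperm chromatin, store many of these messages on RNA-binding proteins for later translation, and then replace histones with transition proteins and protamines. The series' title names Wfdc15a as a bivalent gene and refers to proteases and immunity, so genes of these kinds are described here.

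Wfdc15a itself was lower in the KO libraries than in WT, but it was not absent from them. Levels are given in RPM, reads scaled to the total of each library, and differences as log2(RPM + 1), on which the change of a scarce message comes out too small. Wfdc15a was at 267 and 234 RPM for WT and at 97.9, 67.4 and 48.1 RPM in KO replicates 1 to 3. In Het it was at 65.0 and 71.5 RPM. Every KO value lay below both WT values, and KO and Het overlapped. The KO minus WT difference came to -1.86 (SE 0.28, adjusted p = 0.121 by limma). An exact two-sided permutation test, which doubles the smaller one-sided p, gave p = 0.2. No order of 3 against 2 libraries can give a lower p in this test. KO minus Het was 0.00 (exact permutation p = 1). The 250 bases before the start of Wfdc15a are shown because the gene is the one targeted; they come from RefSeq on build GRCm38.p6, chr2:164200118-164200367, minus strand.

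Wfdc15a promoter: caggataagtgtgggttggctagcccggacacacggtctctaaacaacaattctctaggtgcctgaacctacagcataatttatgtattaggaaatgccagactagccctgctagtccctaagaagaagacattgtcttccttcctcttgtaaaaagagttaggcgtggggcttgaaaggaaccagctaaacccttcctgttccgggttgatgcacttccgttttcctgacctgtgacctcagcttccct

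The other members of the inhibitor family went both ways. Of 28 WFDC and Kunitz-type genes listed, 27 were in the table and 11 were abundant enough to test. All KO lay above WT at 2 of the 11 and below at 4, Wfdc15a included, beside 16.6% and 19.4% of all genes tested. The median of 0.01 changed sign with centred or quantile-normalized libraries and without WT replicate 2 (-0.07). It was -0.33 with KO replicate 1 alone and also without KO replicate 2. Wfdc3 was the next most abundant WFDC gene, at 110 and 121 RPM for WT and 91.3, 66.8 and 63.9 RPM in KO, with no overlap. Eppin, a sperm-surface inhibitor, was at 15.5 and 13.9 RPM for WT and 14.2, 17.9 and 12.5 RPM in KO, and Spint2 at 75.4 and 93.5 against 107, 98.9 and 93.8 RPM. The KO values of Eppin lay on both sides of WT, and those of Spint2 reached above it. Wfdc15b, the family member whose name is nearest, had at most 0.799 RPM in any round spermatid library.

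The 3 KO libraries were not alike, and this bears on every value below. KO replicate 1 was closest to WT: its log2 values had a Pearson correlation of 0.961 with each WT library over 18075 genes, and 16.0% and 16.1% of genes differed from them at least 2-fold, against 13.6% between both WT libraries. KO replicates 2 and 3 were closest to each other and to Het. Replicate 2 differed at least 2-fold from the Het libraries at 10.3% and 10.9% of genes but from WT at 30.0% and 28.5%, and replicate 3 differed from WT at 35.6% and 34.1%. The correlations are a description over genes, which share each library's depth and are not independent replicates. Over all genes tested the median difference from WT was -0.12, 0.15 and 0.09 in KO replicates 1 to 3 and 0.24 and 0.22 in Het. Medians of lists and classes below are to be read beside these and not beside 0 alone.

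A first principal component carried 55.6% of the variance. On it both WT libraries (-73.5 and -67.3) and KO replicate 1 (-60.9) stood against Het (44.8 and 47.0) and KO replicates 2 and 3 (49.3 and 60.6). The second component, with 13.03%, placed all 3 KO libraries (-51.7, -4.81 and -31.3) apart from the 4 WT and Het libraries (21.0 to 22.7). The labels give no batch, and what separates the libraries on the first component cannot be told apart from Het against WT.

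**Figure D1:**
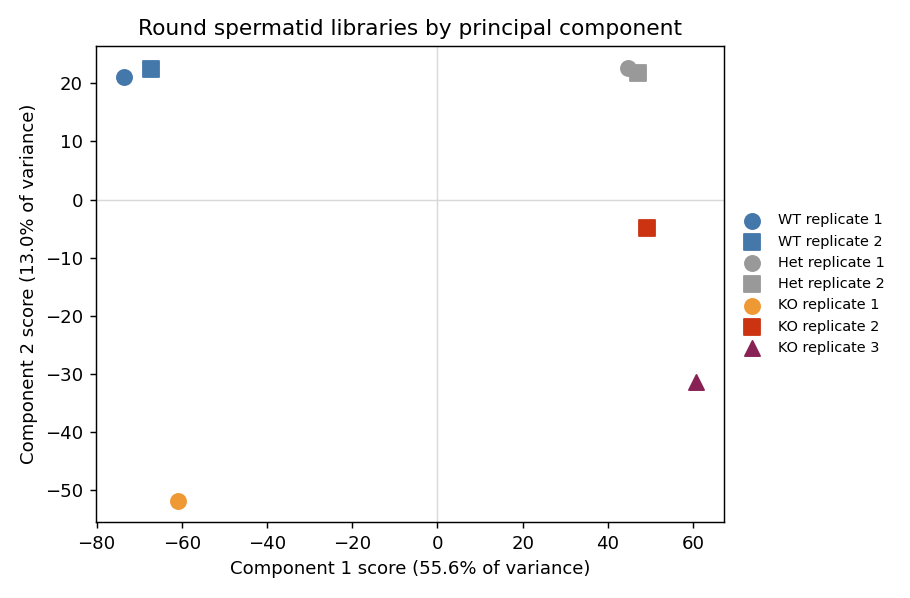
Scores of the 7 round spermatid libraries on the first 2 principal components of log2(RPM + 1) over the 18075 genes tested, 1 point per library. WT and KO replicate 1 sit on the left and Het with KO replicates 2 and 3 on the right, while the KO libraries lie lowest on the vertical axis.

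Genes of the labelled cell type were present in all 7 libraries. All 39 round spermatid genes listed were above 1 RPM in the WT, Het and first KO libraries and 38 of them in KO replicates 2 and 3, with summed levels of 12157 to 13865 RPM. Acrv1, an acrosomal matrix protein, was at 354 and 312 RPM for WT and 379, 356 and 245 RPM in KO, which overlapped. Genes of stromal, Sertoli and Leydig cells moved with the split between libraries. The 36 stromal and peritubular genes summed to 212 and 206 RPM for WT and 175 RPM in KO replicate 1, but to 1086 and 1005 RPM for Het and 1235 and 1885 RPM in KO replicates 2 and 3. Sertoli cell genes summed to 60.4 and 57.7 RPM for WT, 42.9 RPM in KO replicate 1, 378 and 353 RPM for Het, and 660 and 742 RPM in the other KO libraries. Leydig cell genes followed at 124 and 125, 88.5, 229 and 229, and 236 and 310 RPM in the same order. Endothelial cell genes did not, at 36.6 and 32.6, 27.2, 57.1 and 38.5, and 45.6 and 33.5 RPM. Macrophage and leukocyte genes were at 701 and 713, 818, 1083 and 1103, and 1148 and 1262 RPM, also higher in Het and KO replicates 2 and 3. Cyp17a1, a steroid-making enzyme of Leydig cells, had 0 RPM in both WT libraries and 0.191 RPM in KO replicate 1. KO replicates 2 and 3 held 8.26 and 39.3 RPM of it. Other members of the somatic cell lists were present in WT. There 9 and 8 of 28 Leydig, 14 and 14 of 37 Sertoli, and 11 and 16 of 36 stromal genes reached 1 RPM. In KO replicate 1 these counts were 7, 14 and 11. The part of these cells in the differences below was not tested; KO replicate 1 is therefore given by itself throughout. In such pools, fewer cells of a type and less RNA per cell cannot be told apart.

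No gene passed the test between KO and WT. Of 18075 genes tested with limma, 0 (0.0%) were higher and 0 (0.0%) lower at an adjusted p under 0.05, with a smallest adjusted p of 0.121, and voom on the recovered reads also called 0. At an unadjusted p under 0.05, 2020 genes (11.2%) were higher and 1793 (9.92%) lower. By order alone, all KO libraries lay above both WT at 2998 genes (16.6%) and below both WT at 3509 (19.4%). With a gap of at least 1 log2 unit these counts were 104 (0.575%) and 145 (0.802%). Outside the range of WT and Het together, all KO libraries were higher at 246 genes (1.36%) and lower at 886 (4.9%). With centred libraries these counts were 565 and 574, so the excess of lower genes depended on the scaling. The test depends on KO replicate 1. Without it limma called 5508 genes (3490 higher and 2018 lower), and KO and WT then stand on opposite sides of the first component. With KO replicate 1 as the only KO library it called 59, of which 6 were higher (0.0332%) and 53 lower (0.293%), in a fit that assumes the lone library to vary like the others.

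Among the genes with the widest gap below WT were regulators of messenger RNA, transcription and ubiquitin transfer. Ybx3, a Y-box protein that binds and stores messages in spermatids, was at 360 and 378 RPM for WT and 159, 119 and 89.6 RPM in KO, with Het at 138 and 119 RPM. The difference between KO and WT was -1.62 (SE 0.24; adjusted p = 0.121 by limma). All KO libraries lay far below WT, and Het lay among them. Klf4, a Krüppel-like transcription factor made in round spermatids, was at 48.2 and 56.5 RPM for WT, 18.8 and 20.5 RPM for Het, and 19.5, 19.8 and 13.9 RPM in KO (-1.52, SE 0.28). The immune receptor gene Cd72 was at 78.6 and 84.8 RPM for WT, 34.97 and 33.5 RPM for Het and 31.1, 31.99 and 26.3 RPM in KO (-1.43, SE 0.23). For both genes the KO libraries differed little from one another and were level with Het.

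Smaller messages showed the same order. Eif4ebp3, an inhibitor of the cap-binding factor eIF4E, was at 10.7 and 12.8 RPM for WT and 3.82, 3.10 and 2.56 RPM in KO. Mgst3, a microsomal glutathione transferase, was at 23.4 and 22.6 against 8.70, 9.14 and 7.45 RPM, and Erich6 at 48.2 and 51.2 against 18.9, 20.7 and 17.6 RPM. Het lay below both WT for 10 of the 12 genes named on this side, Marchf1 and Opcml being the exceptions. Marchf1, a membrane ubiquitin ligase known for removing MHC class II from the surface, was at 8.41 and 11.5 RPM for WT, 8.52 and 5.73 RPM for Het, and 2.58, 2.17 and 0.781 RPM in KO. Tmem269 was at 14.1 and 11.1 RPM for WT, 7.19 and 9.24 RPM for Het, and 2.63, 3.28 and 3.12 RPM in KO. In both genes the KO libraries were lowest of all. The limma adjusted p-values of the 12 genes ran from 0.121 to 0.132. Several named genes overlap another gene, such as Cd72 with Tesk1, Sf3b3 with Cog4, Foxred1 with Srpr, Ccl27a with Il11ra1 and Timm8b with Nkapd1, and without strand the reads of such neighbours cannot be told apart.

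**Figure D2:**
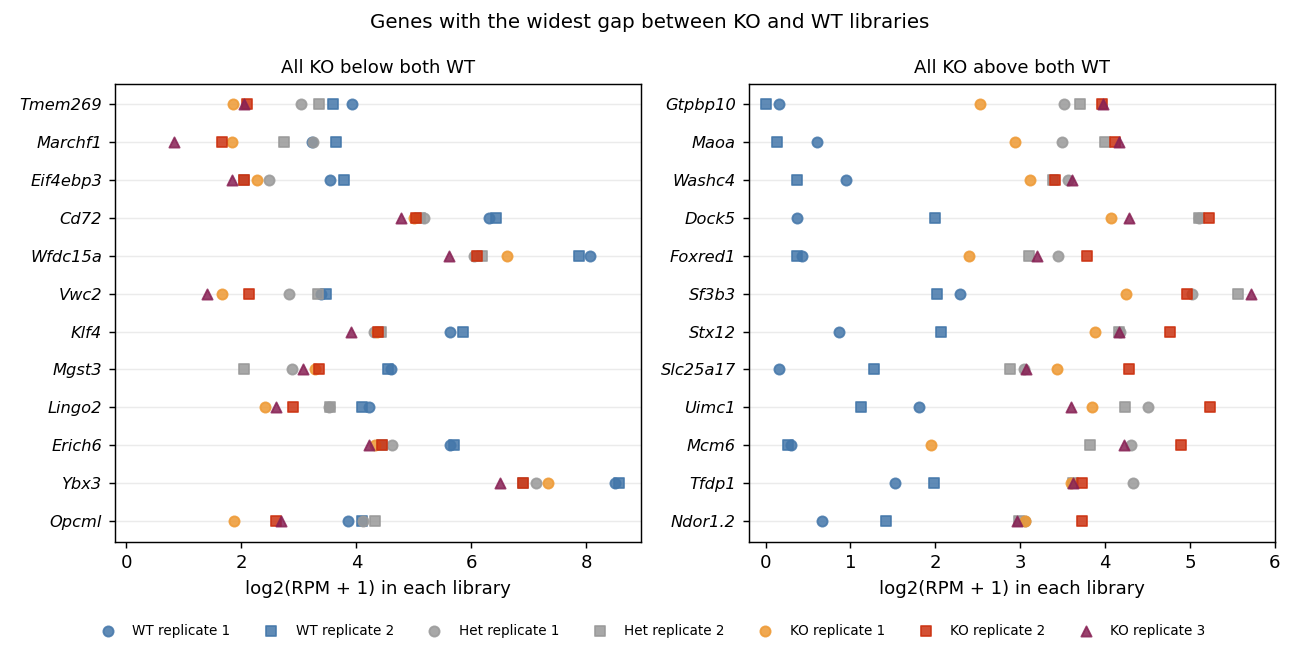
Level of the 12 genes per direction with the widest gap between KO and WT, as log2(RPM + 1) on the horizontal axis, 1 point per library. On the right panel WT stays at or below 3.91 RPM while Het and all KO libraries lie higher; on the left panel the Het points lie with KO for most genes and with WT for Opcml.

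The genes with the widest gap above WT had low levels in WT. Over the 12 named, WT held 0 to 3.91 RPM, KO replicate 1 held 2.87 to 17.9 RPM, KO replicates 2 and 3 held 6.81 to 51.7 RPM, and both Het libraries lay above both WT for all 12. Maoa, the monoamine oxidase, was at 0.526 and 0.0981 RPM for WT and 6.69, 16.4 and 17.0 RPM in KO. Sf3b3, a subunit of the splicing particle that recognises the branch point, was at 3.91 and 3.04 RPM for WT and 17.9, 30.2 and 51.7 RPM in KO (2.82, SE 0.43, limma adjusted p = 0.121). KO replicate 1 stood between WT and the other KO libraries in each of these genes.

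Several of the 12 act in mitochondria, peroxisomes or endosomes, and whether this exceeds the share of such genes among all was not tested. Gtpbp10, a GTPase of mitochondrial ribosome assembly, was at 0.117 and 0 RPM for WT and 4.78, 14.6 and 14.8 RPM in KO. Foxred1, an assembly factor of respiratory complex I, was at 0.350 and 0.294 against 4.25, 12.8 and 8.16 RPM, and Slc25a17, a peroxisomal carrier, at 0.117 and 1.42 against 9.80, 18.5 and 7.38 RPM. Washc4, of the WASH complex on endosomes, was at 0.935 and 0.294 against 7.65, 9.61 and 11.2 RPM, and the endosomal SNARE Stx12 at 0.818 and 3.19 against 13.8, 26.2 and 17.0 RPM. Slc25a17 and Stx12 were as high in KO replicate 1 as in replicate 3, or nearly so. Mcm6, of the replicative helicase, was at 0.234 and 0.196 RPM for WT, 2.87 RPM in KO replicate 1 and 28.9 and 17.7 RPM in the others. Tfdp1, the partner of E2F factors, was at 1.87 and 2.94 RPM for WT and at 11.1, 12.2 and 11.3 RPM in KO, nearly equal in all 3.

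Another 886 genes (4.9%) were lower in every KO library than in WT and Het alike, or 574 genes with centred libraries. Genes of this set with the widest gap were mostly long. Opcml, a cell adhesion molecule of the IgLON group, was at 13.5 and 16.2 RPM for WT, 16.3 and 19.1 RPM for Het, and 2.68, 5.04 and 5.47 RPM in KO. Fgf14, an intracellular fibroblast growth factor that binds sodium channels, was at 76.5 and 70.7 RPM for WT, 62.1 and 84.2 RPM for Het, and 26.2, 31.99 and 17.1 RPM in KO (KO minus WT -1.56, SE 0.29, limma adjusted p = 0.121). Ptprd, a receptor phosphatase of synapses, was at 33.6 and 30.4, 28.6 and 32.2, and 10.1, 14.5 and 13.3 RPM. In these 3 genes the WT and Het values overlapped or adjoined, and all KO libraries lay below them. KO replicate 1 was the lowest for Opcml and Ptprd, and replicate 3 for Fgf14. Cacnb2, a calcium channel subunit, was at 9.46 and 7.45 RPM for WT, 6.66 and 9.51 RPM for Het, and 2.87, 2.75 and 2.70 RPM in KO. Kcnq1ot1, an imprinted antisense RNA, was at 8.002 and 8.68, 11.1 and 9.51, and 2.72, 3.57 and 3.48 RPM; as the method keeps no strand, its reads and those of Kcnq1 cannot be told apart. Of the 8 genes named on this side, 6 span at least 200 kb, and none of the 8 passed the test (adjusted p 0.121 to 0.154).

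**Figure D3:**
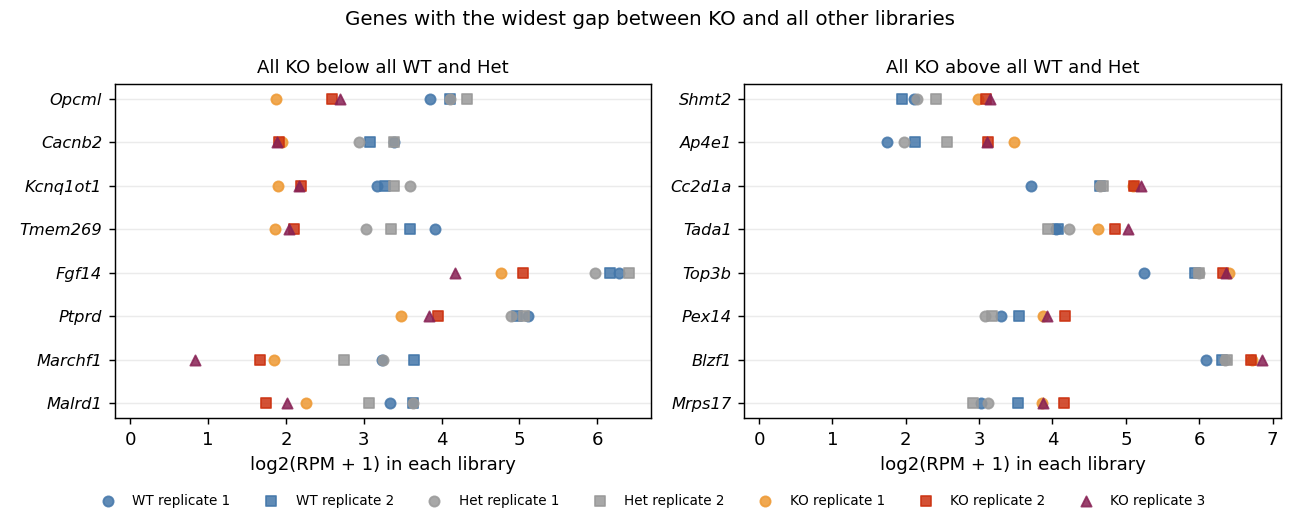
Level of the 8 genes per direction with the widest gap between KO and all WT and Het libraries, as log2(RPM + 1), 1 point per library. On the left panel the KO points lie between 0.781 and 31.99 RPM and those of WT and Het between 5.73 and 84.2 RPM, with no overlap within a gene.

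The pattern followed the length of the gene in the genome, introns included. Genes lower in all KO than in all WT and Het libraries had a median span of 70.6 kb against 24.5 kb for all genes tested, and 26.4% of them spanned at least 200 kb against 5.94%. The share of genes so placed was 2.76% under 2 kb, 2.66% at 2 to 10 kb, 3.05% at 10 to 50 kb, 6.57% at 50 to 200 kb, 17.0% at 200 to 500 kb and 38.7% (91 of 235) at 500 kb or more, beside 4.9% over all genes. Long genes had lower values in each KO library. In the longest class the median difference from WT was -0.58, -0.45 and -0.66 in KO replicates 1 to 3 and 0.18 and 0.08 in Het. Over all genes these medians were -0.12, 0.15 and 0.09 in KO and 0.24 and 0.22 in Het. The longest class thus lay below the median of all genes in Het too, by less than in KO. Shares by span were not computed with centred libraries.

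The difference by length was also present at a matched level. Among genes of 10 to 50 RPM, 27.2% of the 378 that span at least 200 kb were lowest in all KO libraries, against 2.57% of the 3117 under 50 kb. The 235 longest genes together took 1.40% and 1.42% of the RPM for WT, 1.27% and 1.24% in Het, and 1.24%, 1.15% and 1.03% in KO. On this sum Het replicate 2 and KO replicate 1 were level. In whole testis the median difference from WT of the longest class was -0.48 in KO replicate 1, -0.04 in replicate 2 and 0.02 in replicate 3. In the same order the testis medians were -0.14, 1.19 and 1.18 at 10 to 50 kb and 0.04, 1.48 and 1.43 at 50 to 200 kb. They were -0.05, 0.68 and 0.70 at 200 to 500 kb, and -0.29, -0.46 and -0.46 under 2 kb. The longest class thus lay below the classes of 10 to 500 kb in each testis KO library. The deposited values do not separate exonic from intronic reads, so whether the difference lies in spliced messages was not tested.

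**Figure D4:**
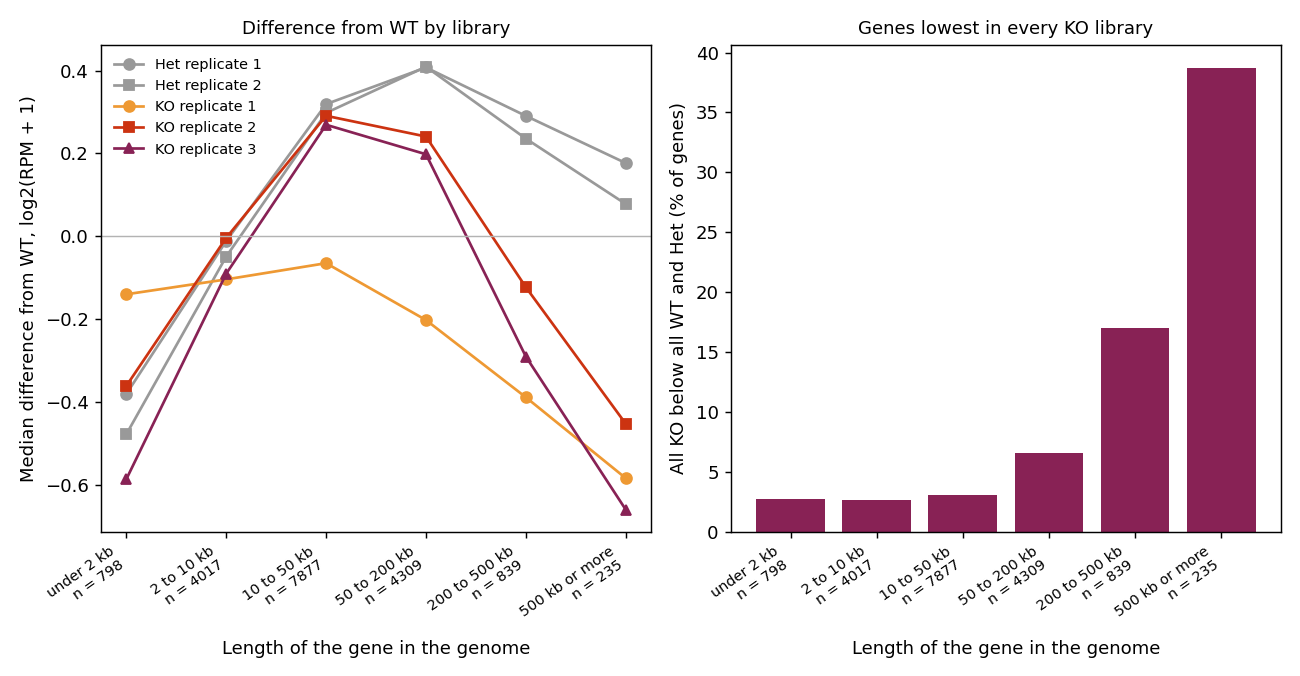
Left, median difference from the mean of WT on log2(RPM + 1) for genes grouped by their length in the genome, 1 line per Het or KO library. Right, share of genes in each class whose 3 KO libraries all lie below all WT and Het libraries. All 3 KO lines lie below 0 from 200 kb on while Het stays above. In the longest class Het lies under its medians over all genes, 0.24 and 0.22. The share reaches 38.7% in the longest class.

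A list of 47 genes of synapses and neuronal adhesion, drawn up with this pattern already known, gives its members. All 47 span at least 200 kb, with a median of 1106 kb. KO minus WT was lower in 45 of 47, with a median of -0.78 beside 0.03 for all genes, and the KO libraries lay below all WT and Het at 29 of 47, beside 4.9% of all genes and the 17.0% and 38.7% of the long classes from which the list was drawn. Grm5, a metabotropic glutamate receptor, was at 5.43 and 8.14 RPM for WT, 5.99 and 6.10 RPM for Het, and 0.956, 0.644 and 0.852 RPM in KO. Unc5c, a netrin receptor, was at 5.02 and 2.84, 3.53 and 3.97, and 0.287, 0.469 and 0.426 RPM. Both were under 1 RPM in every KO library. Not every long gene was lower: Grik2, a kainate receptor, was at 19.4 and 29.1, 26.6 and 26.3, and 22.4, 22.7 and 29.3 RPM.

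Genes higher in all KO than in all WT and Het libraries differed less. Of the 8 named none spans 200 kb, and KO minus WT ran from 0.56 to 1.29 with adjusted p-values of 0.145 to 0.336. Shmt2, the mitochondrial serine hydroxymethyltransferase, was at 3.33 and 2.84 RPM for WT, 3.46 and 4.34 RPM for Het, and 6.93, 7.499 and 7.88 RPM in KO. Ap4e1, of the AP-4 vesicle adaptor, was at 2.34 and 3.38, 2.93 and 4.90, and 10.1, 7.67 and 7.59 RPM. Tada1, of the SAGA histone acetyltransferase complex, was at 15.5 and 15.8, 17.6 and 14.3, and 23.6, 27.9 and 31.8 RPM. In these genes all 3 KO libraries lay close together, replicate 1 included.

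More abundant genes of this kind had smaller gaps. Blzf1, a Golgi matrix protein, was at 67.0 and 78.2 RPM for WT, 80.9 and 82.5 RPM for Het, and 104, 104 and 115 RPM in KO. Top3b, a topoisomerase of DNA and RNA, was at 36.9 and 60.3, 62.6 and 62.7, and 83.6, 79.4 and 81.2 RPM. The spread between both WT libraries of Top3b was larger than the gap from Het to KO. Pex14, of the peroxisomal import machinery, and the mitochondrial ribosome protein Mrps17 stood at 13.6, 17.0 and 14.2 RPM and at 13.5, 16.9 and 13.6 RPM in KO, with at most 10.6 RPM in any other library.

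Protamine and transition protein genes had lower values in KO, and KO replicate 3 was lowest in each. Prm1 and Prm2 encode the protamines, and Tnp1 and Tnp2 the transition proteins that precede them. Prm1 was at 149.6 and 152 RPM for WT, 49.1 and 42.8 RPM for Het, and 68.8, 54.2 and 13.1 RPM in KO (-2.01, SE 0.55, limma adjusted p = 0.131). Prm2 was at 168 and 166 RPM for WT, 110.8 and 89.5 RPM for Het, and 86.6, 97.4 and 34.99 RPM in KO, and Tnp2 at 72.0 and 72.3, 24.9 and 21.5, and 32.3, 35.4 and 9.65 RPM. Tnp1 was at 194 and 183, 47.8 and 50.1, and 123, 69.0 and 19.7 RPM. Every KO and Het library lay below both WT for these 4 genes. The wider list of histone exchange genes went both ways: of 22 tested, 8 had all KO below WT and 3 all above, beside 19.4% and 16.6% of all genes, and the median was -0.13.

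The 250 bases before the start of Prm1, Prm2 and Tnp2 are printed because these neighbours on chromosome 16 differed together. They are from RefSeq, build GRCm38.p6, minus strand, at chr16:10796824-10797073, chr16:10792106-10792355 and chr16:10788656-10788905. Capitals mark TGACTTCA, a variant of the cAMP response element TGACGTCA bound by the spermatid activator CREM, or TATAAA, both searched on either strand; the motifs do not overlap.

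Prm1 promoter: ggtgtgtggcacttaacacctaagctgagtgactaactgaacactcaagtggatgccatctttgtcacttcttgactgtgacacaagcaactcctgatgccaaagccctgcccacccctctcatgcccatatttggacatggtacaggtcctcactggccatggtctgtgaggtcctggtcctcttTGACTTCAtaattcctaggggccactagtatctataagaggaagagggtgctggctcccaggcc
Prm2 promoter: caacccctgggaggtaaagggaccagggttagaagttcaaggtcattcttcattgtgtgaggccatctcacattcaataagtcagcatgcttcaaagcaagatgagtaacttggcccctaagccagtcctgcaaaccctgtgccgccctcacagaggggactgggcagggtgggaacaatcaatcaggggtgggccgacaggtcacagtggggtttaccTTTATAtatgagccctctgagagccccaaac
Tnp2 promoter: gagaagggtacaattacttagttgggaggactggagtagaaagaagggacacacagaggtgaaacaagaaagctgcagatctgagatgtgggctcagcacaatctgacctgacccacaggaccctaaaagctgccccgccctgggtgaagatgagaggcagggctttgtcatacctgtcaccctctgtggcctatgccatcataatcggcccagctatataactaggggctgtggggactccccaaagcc

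TGACTTCA began at -64 from the start in Prm1, and TATAAA at -31 on the opposite strand in Prm2. Neither these motifs nor TGACGTCA were found in the Tnp2 or Wfdc15a stretch. In windows from 250 bases before to 50 after the start, TGACTTCA was present in 1.35% of the 13158 tested genes with a RefSeq promoter, 1.85% of those with all KO below WT and 0.622% of those with all KO above. TGACGTCA was in 2.92%, 2.63% and 3.16% of the same sets, and TATAAA in 8.64%, 10.1% and 7.03%. A match is a description of the letters, not a binding site.

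Genes of the CREM network had a median close to that of all genes. The 30 tested had a median KO minus WT of 0.05, which became -0.01 with centred and -0.03 with quantile-normalized libraries. Of them 7 had all KO above WT and 6 all below, beside 16.6% and 19.4% of all genes. Crem itself was at 765 and 715 RPM for WT and 909, 659 and 673 RPM in KO, and these overlapped. The list of mitochondrial sheath and energy genes held 9 with all KO above and 9 all below WT, of 38, beside the same shares of all genes. Gapdhs, the sperm glycolytic enzyme, was at 122 and 111 RPM for WT, 41.4 and 42.7 RPM for Het and 61.3, 32.8 and 26.8 RPM in KO. Smcp, a protein of the mitochondrial capsule, was at 201 and 178, 66.4 and 62.4, and 98.5, 86.4 and 64.3 RPM. Het and KO lay below both WT in both genes.

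Genes of the acrosome and egg fusion had counts near those of all genes. Spaca7 was at 396 and 323 RPM for WT, 157 and 146 RPM for Het and 234, 184 and 98.3 RPM in KO, and Tmem95, a sperm fusion factor, at 103 and 79.4, 42.6 and 58.0, and 47.6, 56.5 and 33.9 RPM. Adam3, needed for sperm migration into the oviduct, was higher at 2282, 2179 and 2425 RPM in KO against 1672 and 1711 RPM for WT. Of 38 acrosome and fusion genes 7 had all KO above and 7 all below WT, and of 39 round spermatid genes 5 and 13, beside 16.6% and 19.4% of all genes.

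Storage and translation factors held members of both kinds. Ybx2, the partner of Ybx3, was at 105 and 124 RPM for WT, 63.2 and 54.1 RPM for Het and 54.1, 52.9 and 44.5 RPM in KO (-1.16, SE 0.22, limma adjusted p = 0.121). Cpeb2, which binds cytoplasmic polyadenylation elements, was at 251 and 266 RPM for WT, 244 and 202 RPM for Het, and 157, 161 and 165 RPM in KO. Cpeb2 thus lay below Het as well, and its KO libraries were nearly equal. Ddx4, the germ cell helicase, was at 606 and 648 RPM for WT, 1676 and 1931 RPM for Het, and 958, 1743 and 1964 RPM in KO. Over the 39 genes tested 12 had all KO above WT and 8 all below, beside 16.6% and 19.4% of all genes.

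Among genes of protein turnover, a proteasome activator was lower in KO. Psme4 encodes PA200, which acts on acetylated histones during their removal from spermatids. Its level was 685 and 646 RPM in WT, 521 and 492 RPM for Het, and 346, 330 and 292 RPM in KO (-1.05, SE 0.16, limma adjusted p = 0.121). The 3 genotypes did not overlap, and Het lay between. Psma8, the germ cell subunit of the proteasome core, was at 125 and 123 RPM for WT and 189, 219 and 220 RPM in KO. The 43 proteasome genes as a list had a median of 0.02, which changed sign with centred or quantile-normalized libraries, with 10 all above and 9 all below WT, beside the same shares of all genes as the other lists.

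Ribosomal protein genes and nuclear genes of the respiratory chain were lower in KO, most in replicates 2 and 3 and least in replicate 1. Of 79 ribosomal protein genes 49 had all KO below WT and 6 all above, beside 19.4% and 16.6% of all genes. Their median difference from WT was -0.22, -0.90 and -1.38 in KO replicates 1 to 3 and -1.29 and -1.46 in Het. Rps27 was at 368 and 319 RPM for WT, 66.0 and 62.9 RPM for Het and 211, 112 and 68.6 RPM in KO. Rpl14 went the other way, at 14.3 and 9.61 RPM for WT and 22.1, 45.2 and 42.3 RPM in KO. Of 74 respiratory chain genes 43 had all KO below WT and 9 all above. Ndufa5 of complex I was at 222 and 154 RPM for WT and 110, 67.8 and 46.5 RPM in KO, but Ndufs1 of the same complex was at 174 and 160 against 287, 324 and 371 RPM.

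Genes with short transcripts were more often lower in KO than genes in general. Genes with under 1 kb of exon had a median KO minus WT of -0.47, and 38.4% of the 2027 had all KO below WT. In genes with 8 kb or more of exon the median was -0.25 in KO replicate 1 but 0.39 and 0.33 in replicates 2 and 3 and 0.52 and 0.54 in Het. The part of transcript length in the differences of the ribosomal protein and respiratory chain lists was not tested.

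Meiotic genes were higher in KO replicates 2 and 3 and in Het than in WT, and on balance level in KO replicate 1. The median over 47 meiotic genes was 0.59, but -0.01, 0.84 and 0.82 in KO replicates 1 to 3 and 0.85 and 0.93 in Het. Hormad1, a protein of unsynapsed chromosome axes, was an exception in replicate 1, at 56.0 and 53.02 RPM for WT, 167 and 196 RPM for Het, and 104, 175 and 174 RPM in KO. Stag3, the meiotic cohesin subunit, was at 379 and 400, 839 and 897, and 556, 957 and 1105 RPM. In both genes KO replicate 1 lay between WT and the rest. Of the 47, 16 had all KO above WT and 4 all below, beside 16.6% and 19.4% of all genes.

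Chaperones of the endoplasmic reticulum followed the same order. Of 34 tested, 13 had all KO above WT and 1 all below, beside 16.6% and 19.4% of all genes, and the median was 0.07, 0.96 and 0.88 in KO replicates 1 to 3 and 0.90 and 0.86 in Het. Hspa5, the main chaperone of the list, was at 187 and 262 RPM for WT, 887 and 930 RPM for Het, and 273, 854 and 960 RPM in KO. Hyou1 was at 15.0 and 13.5, 75.1 and 77.1, and 23.5, 71.3 and 135 RPM. KO replicate 1 exceeded WT only narrowly for Hspa5. The stromal, Sertoli and Leydig cell genes given above were higher in the same 4 libraries, and their part in these values was not tested.

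Genes of intraflagellar transport, the traffic that builds the flagellum, had a median difference from WT of 0.08, 0.46 and 0.54 in KO replicates 1 to 3 and 0.47 and 0.53 in Het. The members named were chosen by their p between KO and WT. Ift122 was at 131 and 152 RPM for WT, 405 and 486 RPM for Het, and 253, 440 and 504 RPM in KO. Wdr19 was at 86.7 and 85.4, 211 and 198, and 164, 214 and 192 RPM (KO minus WT 1.13, SE 0.19, limma adjusted p = 0.121). Bbs2, of the complex affected in Bardet-Biedl syndrome, was at 9.46 and 10.7, 42.2 and 49.4, and 30.9, 38.9 and 28.2 RPM. All KO lay above WT at 13 of 38 genes of this list and below at 3, beside 16.6% and 19.4% of all genes. Of 58 axoneme genes 15 lay above and 7 below; Cfap52 was at 173 and 150 RPM for WT and 271, 263 and 267 RPM in KO, nearly equal in all 3.

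Proteases and their inhibitors, named in the series' title, differed by list and by library. The 18 cathepsins and matrix metalloproteases tested had a median of 1.16, made up of -0.03, 1.69 and 1.78 in KO replicates 1 to 3, and the 29 serpins, cystatins, Kazal inhibitors and TIMPs one of 0.59, made up of -0.01, 0.64 and 0.64. Neither median left 0 by much in KO replicate 1. The stromal, Sertoli and Leydig cell genes stood in the same order over the libraries, a part that was not tested. The 33 testis serine proteases had 8 genes with all KO above WT and 8 all below, beside 16.6% and 19.4% of all genes, and their median of 0.02 changed sign in the centred, quantile-normalized and 4 of the 5 leave-one-out settings. Prss42, of a cluster on chromosome 9 active in meiosis, was at 42.9 and 45.0 RPM for WT, 108 and 114 RPM for Het and 74.0, 117 and 123 RPM in KO. Prss44 of the same cluster was at 17.7 and 20.3, 27.6 and 29.1, and 29.9, 33.6 and 40.3 RPM, and all its KO values exceeded Het. Adam2, the fertilin subunit, was at 550 and 590 RPM for WT, 1437 and 1551 RPM for Het and 998, 1470 and 1706 RPM in KO (1.25, SE 0.21, limma adjusted p = 0.121). Spink2, the acrosomal inhibitor of the Kazal type, was lower at 943, 630 and 503 RPM in KO against 1467 and 1272 RPM for WT, with Het at 515 and 489 RPM.

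Immune genes were tested in part. All KO lay above WT at 3 of 19 complement genes and 4 of 14 genes of MHC class I presentation, and below at 0 of either, beside 16.6% and 19.4% of all genes. Of 45 interferon-stimulated genes listed 21 were tested, with 5 all above and 3 all below WT (the same shares of all genes stand beside these and the following counts) and a median of 0.00, 0.77 and 1.43 in KO replicates 1 to 3. Trim30a, a member of a family of similar genes among which reads could be split, was at 238 and 118 RPM for WT, 40.2 and 71.0 RPM for Het, and 54.0, 57.9 and 45.6 RPM in KO. Dhx58, a cytosolic RNA sensor, was at 58.1 and 30.2 RPM for WT, 66.2 and 73.2 RPM for Het and 73.3, 72.2 and 72.9 RPM in KO. For both genes the WT libraries were themselves far apart. Of 22 cytokine genes 3 lay above and 5 below; the chemokine Ccl27a was at 167 and 161 RPM for WT, 42.3 and 39.9 RPM for Het and 113, 69.8 and 43.7 RPM in KO. Ptprc, the common leukocyte antigen CD45, was at 4.85 and 2.16 RPM for WT and 6.19 and 5.17 RPM for Het, and at 0.0956, 0 and 0.142 RPM in KO. The KO values are at or under the level that 3 reads give in these libraries, 0.143 to 0.213 RPM. Leukocyte genes went both ways by gene, but their median was -0.17, 1.32 and 0.90 in KO replicates 1 to 3 and 0.33 and 0.20 in Het. Lyz2, of macrophages, was at 0 and 1.77 RPM for WT and 2.68, 14.1 and 11.6 RPM in KO, and 6 of the 21 leukocyte genes tested lay all above WT and 4 all below.

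Genes with bivalent promoters, which carry activating and Polycomb marks together, are named in the series' title for Wfdc15a. Of 62 developmental genes of this kind 20 were tested; 7 had all KO below WT and 0 all above, beside 19.4% and 16.6% of all genes, with a median of -0.27, -0.34 and -0.48 in KO replicates 1 to 3 and -0.43 and -0.42 in Het. Lhx2 was at 29.1 and 22.9 RPM for WT, 9.19 and 8.13 RPM for Het, and 21.1, 10.96 and 3.97 RPM in KO. Of 40 Polycomb and trithorax genes 6 lay above and 2 below, against the same shares. Phc1, of Polycomb complex PRC1, was at 108 and 97.8 RPM for WT, 74.0 and 79.2 RPM for Het and 53.6, 63.4 and 55.4 RPM in KO, below Het as well. Kdm3a, the histone demethylase that spermatids need for protamine genes, was at 112 and 88.0 RPM for WT, 221 and 278 RPM for Het, and 183, 254 and 376 RPM in KO.

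**Figure D5:**
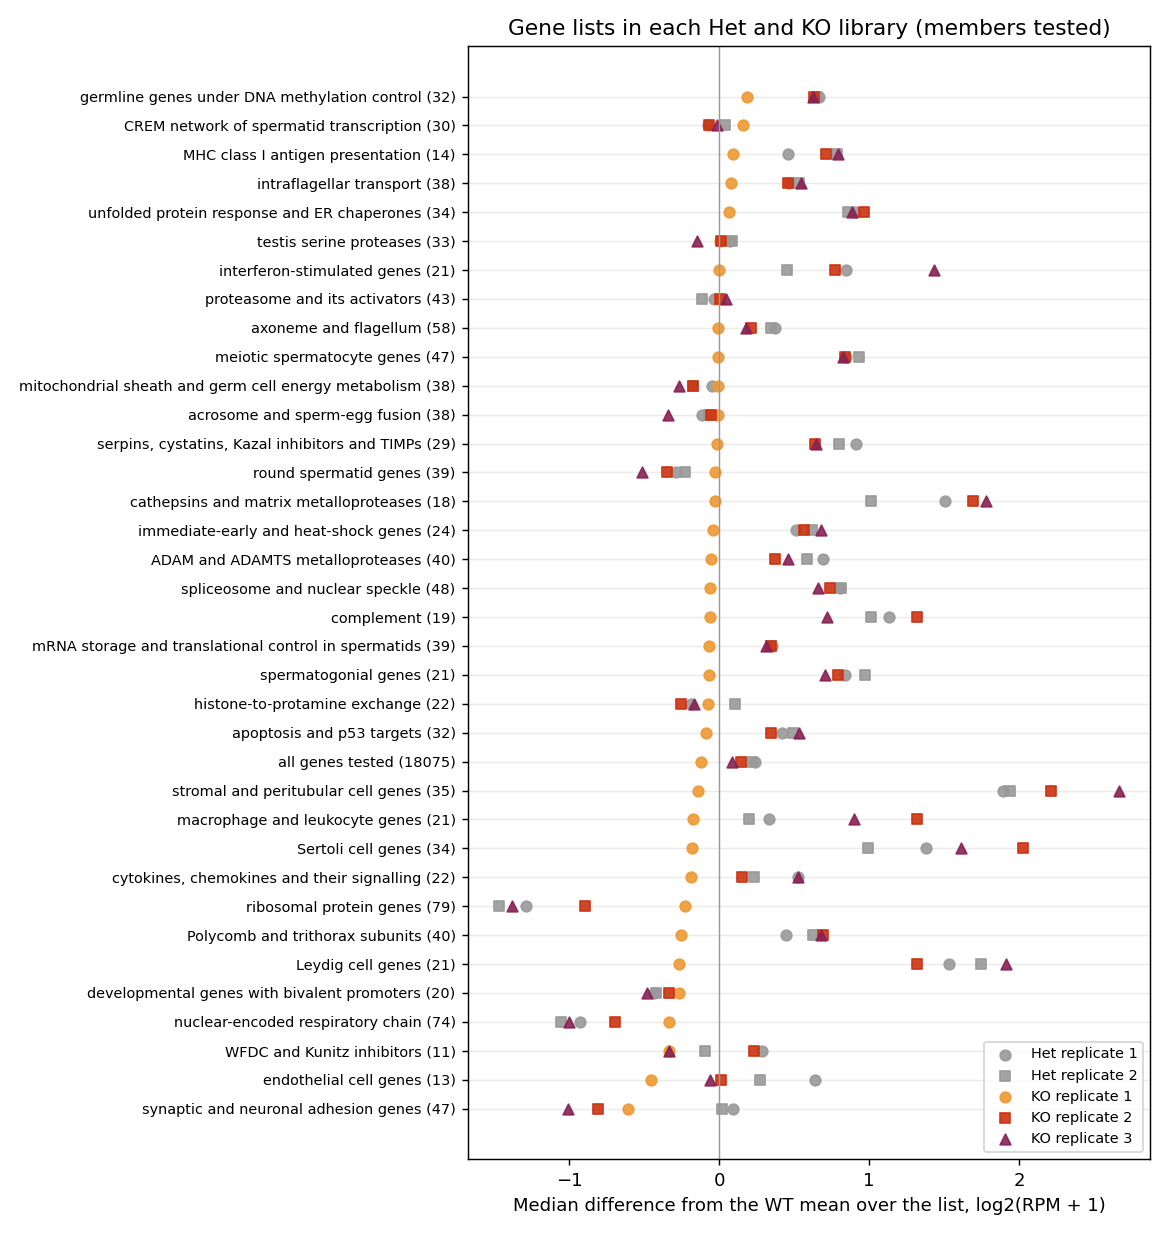
Median difference from the mean of WT on log2(RPM + 1) over the tested members of each gene list, 1 point per Het or KO library, with the number of members in brackets. KO replicate 1 stays near 0 in most lists where Het and the other KO libraries do not, such as ribosomal protein genes (-0.22 against -0.90 and -1.38), and lies at -0.61 with the other KO libraries in the synaptic list. Over all genes tested the medians are -0.12, 0.15 and 0.09 in KO replicates 1 to 3 and 0.24 and 0.22 in Het.

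At a further set of genes KO replicates 2 and 3 left WT and replicate 1 did not. With a gap of at least 1 log2 unit, and KO replicate 1 within 0.25 of WT, there were 826 such genes above WT (4.57%) and 124 below (0.686%). With a gap of any size they numbered 3933 (21.8%) and 2467 (13.6%). The 8 named above were Clu, Col6a1, Sparc, Nid1, Lamb1, Ltbp4, Ctsd and Col1a1, matrix and Sertoli cell genes but for the lysosomal protease Ctsd. They were at 0 to 2.70 RPM for WT, 0 to 1.62 RPM in KO replicate 1, 7.76 to 87.0 RPM for Het and 23.3 to 167 RPM in KO replicates 2 and 3. Below WT stood Txndc8, a thioredoxin of spermatids, at 422 and 369 RPM for WT, 316 RPM in KO replicate 1, 111 and 114 RPM for Het, and 125 and 101 RPM in KO replicates 2 and 3. Timm8b, of mitochondrial import, was at 185 and 163, 146, 53.5 and 50.8, and 63.2 and 50.1 RPM in the same order. In both, KO replicate 1 stayed near the WT level, as the rule requires.

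At some genes KO replicate 1 stood alone. It lay above all 6 other libraries at 1302 genes (7.2%) and below them at 3883 (21.5%). It was at least 1 log2 unit below all 6 other libraries at 277 genes (1.53%) and above them at 1 (0.00553%), the chemokine gene Ccl27b. Add1, a spectrin-binding adducin, was at 0.0478 RPM in KO replicate 1 and 5.30 to 20.1 RPM elsewhere, and Prrc2c at 2.53 RPM against 15.3 to 36.8 RPM. The 277 genes had a median exon length of 5967 bases against 3637 for all genes. KO replicate 1 had the largest total of the 7 round spermatid libraries but the fewest genes detected. It had a read at 19966 genes, against 20482 to 23092 in the other libraries. It reached 1 RPM at 14253 genes, against 15258 to 16894. The part of this in the 3883 and 277 genes was not tested. Against WT, KO replicate 1 by itself differed by -1.34 at Wfdc15a, -1.21 at Ybx3, -0.94 at Psme4, -1.46 at Fgf14 and 0.81 at Adam2. These 5 genes meet naming rules that use the values of KO replicate 1. The part of somatic cells in them was not tested.

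In whole testis, from the same genotypes, the genes named here did not all stand on the same side. Of the 12 genes with the widest gap above WT in round spermatids, 2 had all KO above both WT in testis and 0 all below. By the testis mean, KO was higher than WT at 11 of these 12 and lower at 1. Of the 12 below, 2 had all KO above and 5 all below, and the testis mean of KO was higher at 6 and lower at 6. Wfdc15a (-1.85), Tmem269 (-2.17) and Marchf1 (-2.02) were lower in KO testis, while Klf4 (2.47) and Erich6 (2.099) were higher, most in testis KO replicate 1. The testis libraries divide between KO replicate 1 and the others as well. All KO lay above both WT at 28.2% of testis genes and below at 14.1%. Among genes tested in both, 34.7% of those with all KO above WT in round spermatids (1024 of 2948) were so placed in testis, and 29.6% of those below (958 of 3232).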

How the data were processed

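The members and gene lists were chosen with earlier results of these data known. Expression was measured by Smart-seq2 in pools of sorted round spermatids and in whole testis. Per the submitters' processing notes, reads passed through FastQC 0.11.8 and Trim Galore 0.6.6 and were aligned with HISAT2 2.1.0 to mm10; for the counting program, the annotation and the strand setting the sources used here give nothing. The deposited values are log2 RPM per gene. In each column the lowest value stands for 0.9 read, taken here as no read, and 100.0% of the other values are whole reads within 0.01 read, so reads and RPM were recovered. The reads summed over genes exceeded the total used for scaling. The 13 mitochondrial genes held 0 reads.

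From these values log2(RPM + 1) was computed and tested with limma 3.58.1 in R 4.3.3 (empirical Bayes with a trend on mean level, Benjamini-Hochberg adjustment). The test took in the 18075 of 30479 genes reaching 1 RPM in 2 or more of the 7 round spermatid libraries, in 1 fit of all 3 genotypes. The fit was also run on simulated data in which the KO libraries were alike. That run does not bear on the split among KO libraries seen here. Genes were named by the gap between the lowest library of the higher group and the highest of the lower: 12 per direction for KO against WT, 8 against WT and Het, 8 for KO replicates 2 and 3, and 5 for KO replicate 1 alone, among genes with a mean of at least 5 RPM over the 5 WT and KO libraries, without predicted genes, plus up to 4 per gene list by unadjusted p. Acrv1, Crem, Eppin, Grik2, Prm2, Spint2, Tnp1 and Wfdc15b were outside this rule and were named after their values were seen. Gene positions came from GENCODE M21, whose symbols matched 96.8% of the table. Alternatives were other scalings, filters, weights, a replicate block and leaving out each library. Python 3.11.15, pandas 2.3.3 and matplotlib 3.10.9 made the tables and figures.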

Additional observations from a re-analysis of the deposited data

Results flagged for a closer look

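At 5 named genes all KO libraries lay on one side of WT in round spermatids and on the other in whole testis; the difference between the 2 sample types was not tested. KO minus WT of Klf4 was -1.52 in round spermatids and 2.47 in testis, where KO replicate 1 held 56.4 RPM and the others 7.61 and 6.02 RPM, and it was 1.51 without that library. Mrps17 was at 0.68 and -2.03; its testis KO values were 0.271, 34.8 and 30.9 RPM against 38.4 and 53.3 RPM in WT, and without KO replicate 1 the testis difference was -0.45. Erich6 was at -1.34 and 2.099, or 1.58 without KO replicate 1. Cacnb2 was at -1.32 and 1.37, or 1.30 without it, and Kcnq1ot1 at -1.14 and 4.53, or 4.40. In all 5 genes the 1 Het testis library also lay on the KO side of both WT testis libraries. It held 5.47 RPM of Klf4, 12.6 of Erich6, 33.2 of Mrps17, 9.02 of Cacnb2 and 29.3 of Kcnq1ot1. The testis difference of these genes was thus shared by Het. For Cacnb2 and Kcnq1ot1, Het lay with WT in round spermatids and with KO in testis. Leaving out testis KO replicate 1 was chosen after seeing the data.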

How the results depend on the processing

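The count of genes called by limma was 0 in most settings, but 59 with KO replicate 1 alone, 4 with centred libraries (Gtpbp10, Sf3b3, Dock5 and Maoa), 5706 with library quality weights, and 0 to 5508 when a library was left out, the highest being without KO replicate 1. Over left-out libraries, genes with all KO above both WT numbered 3351 to 6720 and those below 4052 to 5438; at a mean of at least 5 RPM 2304 lay below. Genes above WT and Het numbered 565 with centred and 450 with quantile-normalized libraries and 358 to 1833 over left-out libraries. Those below numbered 574 with centred libraries, 443 at a mean of at least 5 RPM and 1246 to 1692 over left-out libraries. Fewer genes are tested under the 5 RPM filter. Leaving out a library removes a condition, so the counts of genes with all KO above or below can only stay or rise. For the other settings the cause was not tested. Wfdc15a passed with KO replicate 1 alone (-1.34) and with library quality weights (-1.92), and ran from -2.12 to -1.61 over left-out libraries.

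KO minus WT changed sign at a few named genes, none of which was called in the main fit, where no gene was. With KO replicate 1 alone it was 0.19 for Acrv1, -2.66 for Add1, -0.12 for Clu, -0.28 for Col6a1, 0.30 for Crem, -0.039 for Eppin and -0.081 for Grik2. With library quality weights it was 0.025 for Acrv1, -0.42 for Ccl27b, -0.014 for Grik2 and 0.42 for Prrc2c. With centred libraries it was -0.0024 for Add1, -0.056 for Eppin and -0.015 for Grik2, and with quantile-normalized ones -0.060 for Eppin and -0.010 for Grik2. For Add1 it was -1.24 on the log2 values as deposited, -0.72 with a pseudocount of 0.1 RPM and -1.54 with voom, which gave -0.0020 for Eppin. Over left-out libraries it ran from -0.17 to 0.14 for Acrv1, -0.75 to 1.42 for Add1, -0.32 to 0.93 for Ccl27b, -0.15 to 0.081 for Crem, -0.13 to 0.12 for Eppin, -0.23 to 0.33 for Grik2 and -0.98 to 0.49 for Prrc2c.

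The labels do not say whether the replicate numbers pair the samples. Deviations of same-numbered libraries from their genotype means correlated at -0.02 to 0.05. In a genotype with 2 libraries these deviations mirror each other, so the correlations cannot settle the pairing. With the replicate block 0 genes were called and 2391 had an unadjusted p under 0.05, against 3813 without it. Under the block Wfdc15a was at -1.61, Acrv1 at 0.14, Add1 at -0.75, Crem at 0.065 and Grik2 at -0.073.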
